A study of Mus musculus with 24 samples.

Results

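Mouse white fat cells grown in primary culture were compared between day 7 and day 4 after isolation. The comparison rests on 14 of the 24 Affymetrix Murine Genome U74Av2 arrays of the series, chosen by their titles, with 8 arrays at day 4 and 6 arrays at day 7. The labels call the day 4 cells not yet differentiated and the day 7 cells differentiated, and the series' design text sets pre-adipocytes against mature adipocytes of white and of brown fat. The labels name no genotype, strain, sex, age or added hormone, and all groups share culture in vitro. The other 10 arrays hold brown fat cells at the same days, 5 at each, and enter here only to test whether a change differed between the cell types. Arrays are named by the number in their title. Whether arrays of 1 group stem from different animals or cultures is not in the labels. The p-values therefore measure array-to-array spread alone, and that spread may be technical. Each array was hybridised with biotinylated cRNA made in 1 round of amplification from total RNA, and a signal is the brightness of 1 probe set on a linear scale.

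A white pre-adipocyte is a stromal cell of fat that can still divide. During differentiation it leaves the cell cycle, the transcription factors C/EBP beta and delta give way to PPAR gamma and C/EBP alpha, and the cell takes up glucose and fatty acids and packs them into a lipid droplet coated by perilipins and CIDE proteins. Mature white cells release fatty acids by lipolysis and secrete hormones such as adiponectin, leptin and resistin. A culture from minced fat also carries stromal cells, vessel cells and macrophages. In bulk RNA of this kind, fewer cells of a type and less RNA per cell cannot be told apart.

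The day 7 label was checked against adipocyte markers. The log2 signal averaged over the 7 adipocyte markers tested ran from 7.18 to 8.99 on the day 4 arrays and from 9.09 to 9.82 on the day 7 arrays, with no overlap. The lowest of these values belonged to day 4 array 51. Among markers of brown fat, Cox8b is described below, and Cox7a1 had signals of 12.7 to 74.0 at day 4 and 18.9 to 103 at day 7. Zic1, a transcription factor of brown fat precursors, was at the floor (the lowest signal allowed, 8.21) on every white array, and the signal of Ucp1, the uncoupling protein of brown fat, did not exceed 21.3 on any of them. Stromal markers ranged widely, from Col1a1, a chain of type I collagen, at 2836 to 9849 at day 4 and 8187 to 10620 at day 7, to Cd34, at 30.2 to 77.2 and 15.8 to 47.5. Of 9 stromal markers in the test described below, 2 were higher at day 7 (Dcn and Lum) and 0 lower. Their median log2 difference was 0.17, and over all genes 9.03% were higher and 10.4% lower.

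The day 7 arrays differed from the day 4 arrays in how much signal the 5' end of control transcripts gave. On this array type that signal is used as a measure of RNA integrity. Labelling starts at the 3' end, so a ratio of 3' to 5' signal above that of other arrays means less signal from the far end of the transcript. For Gapdh the ratio was 0.841 to 1.10 on the day 4 arrays (mean 0.943 ± 0.0955, SD, n = 8) and 1.09 to 1.54 on the day 7 arrays (mean 1.36 ± 0.204, SD, n = 6; two-sided exact permutation p = 0.00133, adjusted 0.00178 over 4 transcripts). Day 7 array 40, at 1.093, lay inside the day 4 range, and array 44, at 1.109, lay just above its highest value of 1.104. Arrays 35, 36, 39 and 43 lay between 1.46 and 1.54. For Actb, which encodes beta-actin, the ratio was 1.33 to 1.89 at day 4 and 1.93 to 2.76 at day 7 (exact permutation p = 0.000666, adjusted 0.00178). The groups did not overlap, and arrays 40 and 44 were again the lowest of the day 7 arrays, at 1.93 and 2.16. For the transferrin receptor Tfrc the ratio was 1.80 to 28.2 at day 4 and 1.39 to 25.9 at day 7, with no difference beyond that spread (exact permutation p = 0.635). Its 5' signal had medians of 4.677 at day 4 and 6.975 at day 7, below the floor of 8.21 used for tested probe sets. This ratio was therefore too noisy to show whether the far end gave less signal. On the brown arrays the Gapdh ratio was 0.769 to 0.999 at day 4 and 0.854 to 0.942 at day 7.

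**Figure D1:**
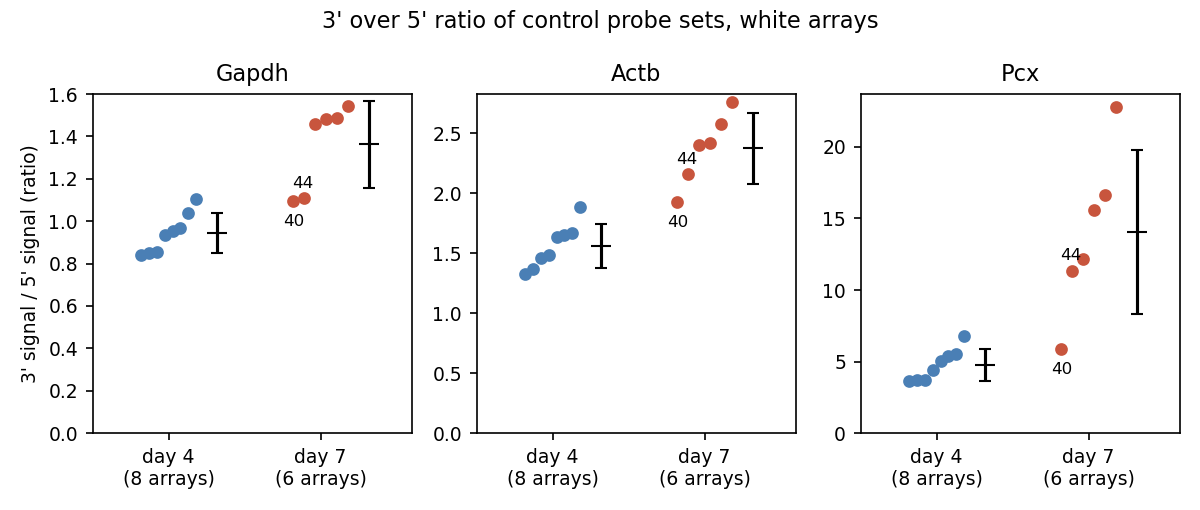
Ratio of 3' to 5' signal (vertical axis, no unit) of the control probe sets for Gapdh, Actb and Pcx on each white array, by day. Points are arrays, and the bar at the side of each group is the mean ± SD; day 7 arrays 40 and 44 are marked and lie nearest to the day 4 arrays for Gapdh.

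The 3 parts of a control transcript did not move alike. For Gapdh the day 7 minus day 4 difference in log2 signal was -0.87 ± 0.18 at the 5' end, -0.63 ± 0.14 in the middle and -0.35 ± 0.10 at the 3' end (values after ± are standard errors unless SD is written; these controls were not among the probe sets tested). The Actb signal showed the same order, with differences of -0.79 ± 0.15 at the 5' end, -0.49 ± 0.14 in the middle and -0.19 ± 0.10 at the 3' end. Pcx, which encodes the pyruvate carboxylase that refills the TCA cycle and feeds fat synthesis, was higher at day 7 at its 3' end and not at its 5' end. Its 3' control signal was 239 to 758 (median 371) at day 4 and 644 to 1393 (median 1125) at day 7, a difference of 1.31 ± 0.27. Its 5' signal was 54.6 to 149.9 at day 4 and 47.5 to 122.8 at day 7, a difference of -0.17 ± 0.29. In brown cells all 4 parts of Pcx had positive differences, 0.63 ± 0.24 at the 5' end and 0.37 ± 0.17 at the 3' end. The Pcx ratio was 3.66 to 6.78 at day 4 and 5.85 to 22.8 at day 7 (exact permutation p = 0.00133). As Pcx is a metabolic gene that itself passed the test below, a change in its expression and a change in integrity cannot be told apart in this ratio.

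**Figure D2:**
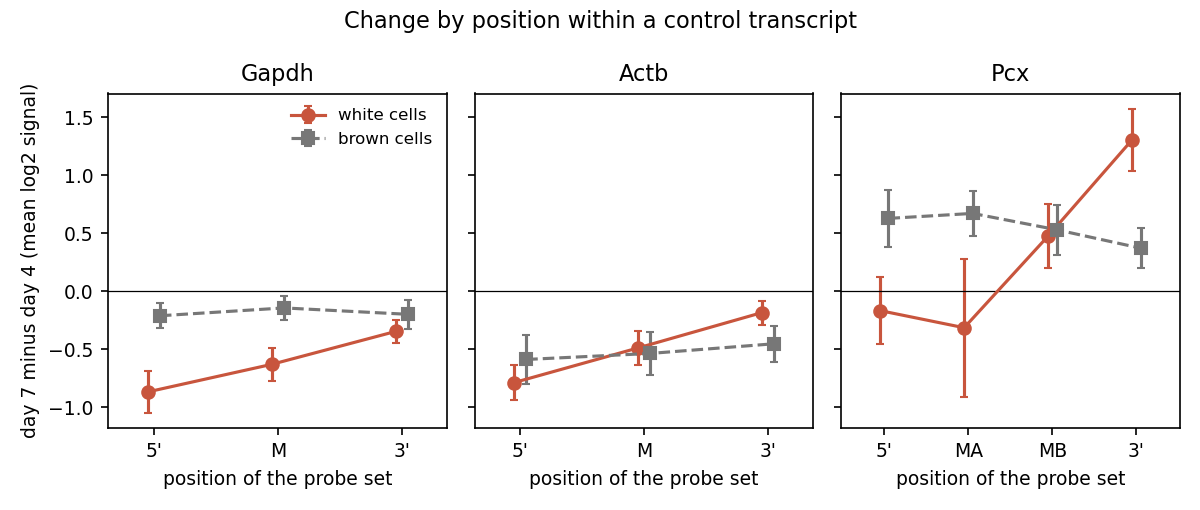
Day 7 minus day 4 difference in mean log2 signal (vertical axis) at each position of the Gapdh, Actb and Pcx control transcripts (horizontal axis, 5' to 3'), in white and in brown cells, with standard errors. In white cells the 3' end lies above the 5' end, at -0.35 against -0.87 for Gapdh and at 1.31 against -0.17 for Pcx, whose next point (MA) is lower, at -0.32.

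Of 8397 probe sets tested with limma, 1595 passed an adjusted p of 0.05 between day 7 and day 4, with 702 (8.36%) higher and 893 (10.6%) lower at day 7. At least 2-fold differences were found for 204 higher and 125 lower. The arrays of the 2 days did not overlap for 187 higher and 215 lower probe sets, 4.79% of those tested. Counting each gene once by its brightest tested probe set, 567 of 6281 genes (9.03%) were higher and 656 (10.4%) were lower, and the median difference over all genes was 0.01 with a median standard error of 0.19. These shares and this median are the background for every gene list that follows. The titles carry runs of consecutive numbers, and 3 runs hold both days.

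The Gapdh and actin ratios moved with the day, so their part in single genes could not be separated from that of the day. With the Gapdh ratio as a covariate, 37 probe sets passed, and the estimated differences of the 1223 called genes kept a median of 0.801 of their size, 19 of them turned their sign, and their median standard error grew from 0.174 to 0.291. With the actin ratio, 6 probe sets passed, the median was 0.603 and 91 genes turned their sign. Against day 7 arrays 40 and 44 alone, whose Gapdh ratios lay nearest to those of day 4, 330 probe sets passed with 2 arrays in the group. The called genes kept a median of 1.005 of their size and none turned its sign. These genes had been called with the same 2 arrays and the same day 4 arrays in the fit, so this is no separate test of them. In the actin ratio arrays 40 and 44 lay above every day 4 array. Without these 2 arrays 1070 passed. Without day 4 arrays 45 and 51, whose numbers lie outside the 3 runs, 1046 probe sets passed. With the Gapdh ratio in the fit, 8 of 44 functional lists had any called member, and with the actin ratio 2 did.

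**Figure D3:**
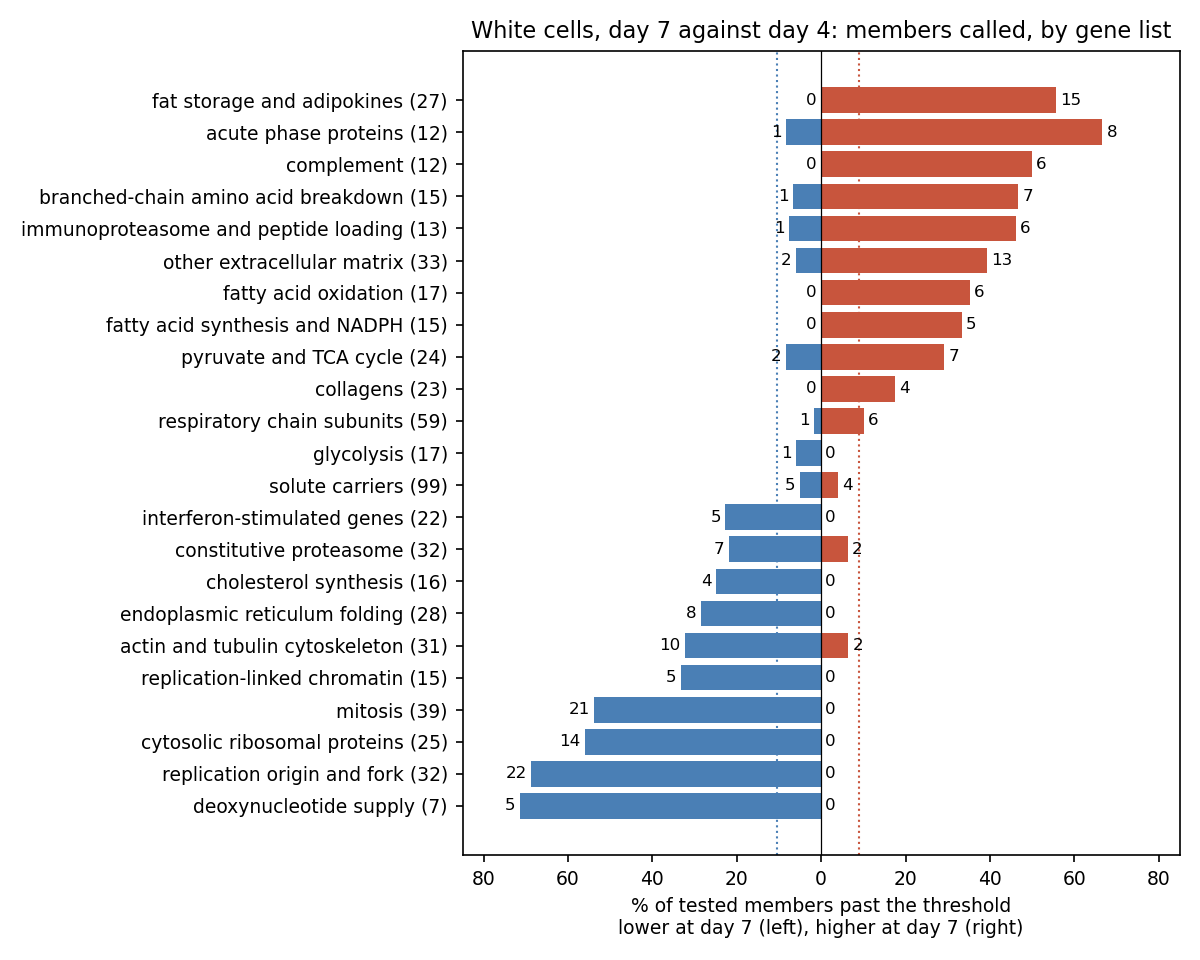
Share of tested members past the threshold (horizontal axis, percent), higher at day 7 to the right and lower to the left, for 23 gene lists, with the number tested in brackets and the number called at each bar. Dotted lines mark the shares over all genes, 9.03% higher and 10.4% lower; fat storage had 15 higher and 0 lower of 27, and replication 0 higher and 22 lower of 32.

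Genes of lipid storage and adipokines were higher at day 7. Of 27 tested members, 15 were higher and 0 lower, with a median difference of 1.19, where 9.03% and 0.01 would match all genes. The list mean per array was 7.37 to 8.84 at day 4 and 8.88 to 9.55 at day 7 in log2 signal, with no overlap, and the lowest day 4 arrays were 51 (7.37) and 45 (7.67). Without these 2 arrays 13 members were higher, and against arrays 40 and 44 alone 4 were, with a median of 1.10. With the Gapdh ratio as a covariate 0 members passed.

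Thrsp, a nuclear protein that promotes the transcription of lipogenic genes, showed the greatest rise of all genes whose arrays did not overlap. Its signal was 71.0 to 532 (median 199) at day 4 and 1459 to 3229 (median 2724) at day 7. Every day 7 array exceeded every day 4 array, by 3.61 ± 0.41 on the log2 scale (adjusted p = 3.18e-06). Slc27a1, a fatty acid transporter of the plasma membrane, rose from 14.9–68.5 (median 21.0) to 123–208 (median 154). The difference was 2.55 ± 0.37 with no overlap (adjusted p = 7.95e-05). Adipoq, the hormone adiponectin, had signals of 732 to 3099 (median 2074) at day 4 and 4611 to 6336 (median 5895) at day 7. All day 7 arrays were the higher ones, by 1.59 ± 0.27 (adjusted p = 0.000378).

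The proteins of the lipid droplet moved in the same direction. Cidec, which fuses droplets, rose from 17.8–168 (median 63.6) to 116–378 (median 305). The groups overlapped at their edges, and the difference was 2.15 ± 0.48 (adjusted p = 0.00297). Plin4, a perilipin of small droplets, rose by 1.90 ± 0.33 with no overlap. The 3 lipases that break triglyceride down in turn all rose, Pnpla2 by 1.53 ± 0.29, Lipe by 1.47 ± 0.26 and Mgll by 1.41 ± 0.26. Gpd1, which makes the glycerol backbone of triglyceride, rose by 1.87 ± 0.36, and Lpl, which frees fatty acids from lipoproteins outside the cell, by 0.59 ± 0.15 with no overlap.

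Resistin, Retn, ran from 108 to 1442 (median 347) at day 4 and from 1440 to 3134 (median 2802) at day 7. The groups touched at their edges, and the difference was 2.56 ± 0.62 (adjusted p = 0.00531). Car3, a carbonic anhydrase abundant in white fat, rose by 1.30 ± 0.29 with no overlap. The insulin-responsive glucose transporter Slc2a4 rose by 1.37 ± 0.41 (adjusted p = 0.0196), a call that was lost without day 7 array 36 (adjusted p = 0.0536). Its lowest day 4 value, at the floor, was that of array 51, and without arrays 45 and 51 the difference was 0.82 and did not pass (adjusted p = 0.0509). Leptin did not move with the others. Lep had signals of 147 to 322 at day 4 and 139 to 318 at day 7, a difference of 0.01 ± 0.22 (adjusted p = 0.978). The fatty acid carrier Fabp4 had a difference of 0.40 ± 0.17 and did not pass (adjusted p = 0.0981).

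**Figure D4:**
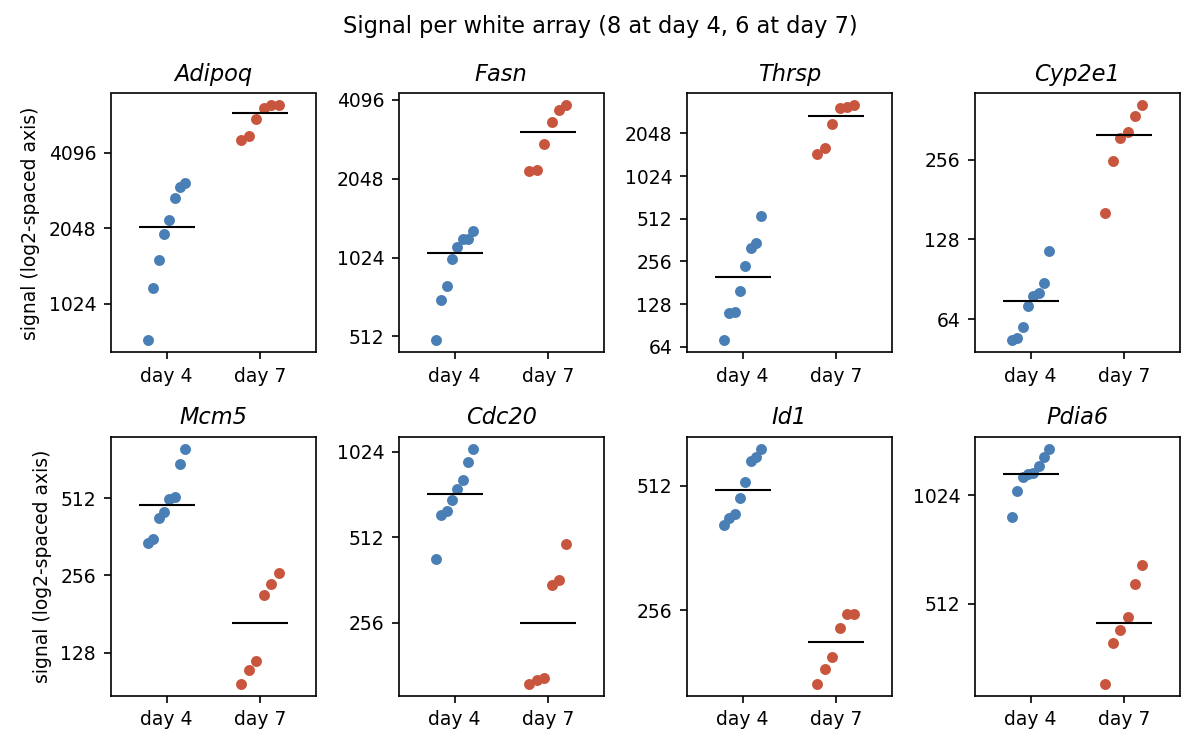
Signal of 8 genes on each white array (vertical axes, log2-spaced), 8 arrays at day 4 and 6 at day 7, with the group medians as lines. The arrays of the 2 days do not overlap for Adipoq, Fasn, Thrsp, Cyp2e1, Mcm5, Id1 and Pdia6; for Cdc20 they overlap, and the 6 day 7 arrays lie in 2 places, at 156 to 163 and at 347 to 484.

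Among 19 tested adipogenic regulators, 3 were higher and 1 lower, with a median of 0.06, so as a group they did not stand out against the 9.03% and 10.4% of all genes. Lpin1, a phosphatidate phosphatase that also acts with PPAR gamma, rose from 77.1–202 (median 144) to 242–387 (median 338). The groups did not overlap, with a difference of 1.23 ± 0.22 (adjusted p = 0.000528). Srebf1, which switches on fatty acid synthesis, rose by 0.92 ± 0.20. Pparg, the master regulator of fat cells, was already present at day 4, at 91.5 to 268, and reached 184 to 356 at day 7, a difference of 0.63 ± 0.19 (adjusted p = 0.0239) that missed the threshold without day 4 array 45 or without day 7 array 43 or 44 (highest adjusted p = 0.0668). Cebpa, its partner, was bright at both days, at 1229 to 3501 and 1625 to 3152, and the difference of 0.11 ± 0.19 did not pass. Cebpd, an early factor of the cascade, fell by 1.04 ± 0.19 (adjusted p = 0.000607), from a median of 1187 to 641.

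Fatty acid synthesis and cholesterol synthesis gave calls in opposite directions. Of 15 tested members for fatty acid synthesis and its NADPH supply, 5 were higher and 0 lower, with a median of 0.33. Fasn, which builds palmitate, had signals of 494 to 1292 (median 1068) at day 4 and 2186 to 3901 (median 3073) at day 7. No day 4 array reached the day 7 range, and the difference was 1.65 ± 0.22 (adjusted p = 2.63e-05). Me1, which makes NADPH, rose by 1.51 ± 0.22, Acly, which makes cytosolic acetyl-CoA, by 0.88 ± 0.17, and the desaturase Scd1 by 0.66 ± 0.18 with no overlap. Of 16 tested members of cholesterol synthesis, 0 were higher and 4 lower (Nsdhl, Fdps, Mvd and Mvk), with a median of -0.16. Fdps, which makes farnesyl diphosphate, fell by 0.60 ± 0.14 (adjusted p = 0.00374), from 2942–6085 to 2250–3433. Against arrays 40 and 44 alone the median of this list was -0.02, and without day 4 arrays 45 and 51 only Fdps of the 4 passed (adjusted p = 0.019).

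Breakdown of fatty acids and of branched-chain amino acids gave calls above the background share of higher genes. Of 17 tested genes of fatty acid oxidation, 6 were higher and 0 lower, with a median of 0.34. Acadm, the medium-chain acyl-CoA dehydrogenase, rose from 137–373 (median 262) to 540–1249 (median 814). The groups did not overlap, with a difference of 1.67 ± 0.26 (adjusted p = 0.000175). Etfa, which passes electrons from these dehydrogenases to the respiratory chain, rose by 0.72 ± 0.18 with no overlap. Without day 4 arrays 45 and 51, 2 members passed in place of 6.

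White fat cells are known to burn branched-chain amino acids for fat synthesis. Of 15 tested genes of that pathway, 7 were higher and 1 lower, with a median of 0.47. Mccc1, a subunit of the carboxylase that breaks down leucine, rose from 67.4–184 (median 108) to 218–392 (median 376). The difference was 1.59 ± 0.21 with no overlap (adjusted p = 3.7e-05). Mmut, the mutase that feeds propionate into the TCA cycle, rose by 1.09 ± 0.24 with no overlap, and Hibch, of the valine branch, by 1.18 ± 0.32. The 1 lower member was Bcat1, the cytosolic aminotransferase of the first step, which fell by 0.49 ± 0.14 (adjusted p = 0.013). The aminotransferase Bcat2 was also tested and did not pass. Without day 4 arrays 45 and 51, 4 were higher and 1 lower.

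In the TCA cycle and pyruvate entry, 7 of 24 tested members were higher and 2 lower, with a median of 0.16. The probe set that stood for Pcx rose by 1.40 ± 0.24 (adjusted p = 0.000339), and the differing behaviour of its 5' and 3' controls is given above. Sucla2, a subunit of succinyl-CoA synthetase, rose by 0.90 ± 0.20 with no overlap, and Sdha, of succinate dehydrogenase, by 0.87 ± 0.22. Pdk3, a kinase that switches pyruvate dehydrogenase off, fell by 0.55 ± 0.15 and Idh2, the mitochondrial NADP-linked isocitrate dehydrogenase, by 0.52 ± 0.12.

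Respiratory chain subunits gave 6 higher and 1 lower of 59 tested, with a median of 0.07, a share near that of all genes. Cox8b, a subunit isoform of cytochrome oxidase that is most abundant in brown fat and muscle, stood out among them. Its signal was 73.7 to 121 (median 103) at day 4 and 270.4 to 696 (median 383) at day 7. The groups did not overlap, with a difference of 2.05 ± 0.37 (adjusted p = 0.000579). Uqcrc2 rose by 1.0 ± 0.20 and Uqcrb by 0.92 ± 0.22, both parts of complex III and both without overlap. Their probe sets may also bind related sequences. In glycolysis, 0 of 17 were higher and 1 lower with a median of -0.00; Hk1, a hexokinase, fell by 0.51 ± 0.13 (adjusted p = 0.0061), a call lost with the number runs as a block (adjusted p = 0.0584) and without arrays 40 and 44 (adjusted p = 0.0739).

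Redox and detoxification genes split, with 5 higher and 6 lower of 35 tested and a median of 0.03. Cdo1, the dioxygenase that breaks down cysteine, had signals of 92.7 to 473 (median 277) at day 4 and 1318 to 2060 (median 1715) at day 7. Every day 7 array was above every day 4 array, by 2.67 ± 0.30 (adjusted p = 3.18e-06). Cyp2e1, a cytochrome P450 that oxidises ethanol and acetone, rose from 53.2–116 (median 75.2) to 161–410 (median 317). The difference was 2.0 ± 0.22 with no overlap (adjusted p = 3.18e-06). Both passed with the Gapdh ratio in the fit, at 2.38 (adjusted p = 0.0365) and 2.35 (adjusted p = 0.00343). With the actin ratio Cyp2e1 passed and Cdo1 did not, at 1.97 (adjusted p = 0.154).

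Catalase, Cat, rose by 1.06 ± 0.17 and the epoxide hydrolase Ephx2 by 1.16 ± 0.21, both without overlap. Nqo1, a quinone reductase under the antioxidant regulator NRF2, went down, from 17.6 to 42.1 at day 4 to between the floor and 18.8 at day 7. The difference of -1.38 ± 0.33 (adjusted p = 0.0042) depends on the floor, since 1 day 7 array lay at it, and it shrank to -0.24 and did not pass with a higher floor. The other 5 that fell, Gstm2, Gstt1, Mgst3, Prdx2 and Gsto1, are glutathione transferases or a peroxiredoxin, with differences from -0.66 to -0.39.

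Secreted plasma proteins formed the list with the greatest share called higher among those in the plot by list. Of 12 tested acute phase proteins, 8 were higher and 1 lower, with a median of 0.88, and without day 4 arrays 45 and 51 the counts were 7 and 1. Orm1, the carrier protein orosomucoid, rose from between the floor and 119.8 (median 39.5) to 182–372 (median 292). Every day 7 array was the higher; the difference of 3.13 ± 0.49 (adjusted p = 0.000175) depends on the floor, where 2 day 4 arrays lay. Lrg1, a secreted leucine-rich glycoprotein, rose by 2.17 ± 0.38 with no overlap, from a median of 231 to 1236. Itih4, Orm2, Cp, Serpina3n, Hpx and Hp also rose, by 2.24, 1.59, 1.53, 0.95, 0.82 and 0.63; with the number runs as a block Orm2 did not pass (adjusted p = 0.0541). Ptx3, a pentraxin made by stromal cells on inflammatory signals, fell by 1.17 ± 0.25 (adjusted p = 0.00247).

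Complement showed 6 higher and 0 lower of 12 tested, with a median of 0.77, and 7 higher without day 4 arrays 45 and 51. Cfi, the protease that cuts C3b and C4b, rose from between the floor and 146 (median 63.5) to 342–609 (median 453). The groups did not overlap, with a difference of 3.33 ± 0.46 (adjusted p = 6.01e-05) that depends on the floor for 1 day 4 array. C2, a protease of the classical pathway, rose by 1.36 ± 0.26 with no overlap. Clu, a secreted chaperone that restrains the membrane attack complex, had signals of 161 to 342 (median 232) at day 4 and 399 to 812 (median 595) at day 7. No arrays overlapped, the difference was 1.34 ± 0.18 (adjusted p = 2.63e-05), and it was 1.52 with the Gapdh ratio in the fit (adjusted p = 0.0192) and 1.10 with the actin ratio (adjusted p = 0.211). In the insulin-like growth factor system 3 of 11 were higher and 0 lower, with a median of 0.28; Igfals, the serum partner of IGF, rose by 1.66 ± 0.33 with no overlap and the binding protein Igfbp2 by 1.35 ± 0.28. Igf1 itself had a difference of 0.54 ± 0.40 and did not pass.

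Genes of DNA replication were lower at day 7. Of 32 tested members for replication origins and forks, 0 were higher and 22 lower, with a median of -0.73, and 31 of the 32 estimates were below 0. Without day 4 arrays 45 and 51, 23 were lower. Arrays 40 and 44 were among the 3 day 7 arrays lowest in mitosis genes. Against them alone the median was -1.05, and without them it was -0.61, with 14 lower. With the Gapdh ratio as a covariate 5 were lower, and with the actin ratio 0. Deoxynucleotide supply gave 0 higher and 5 lower of 7 tested, and mitosis 0 higher and 21 lower of 39 tested, with medians of -0.52 and -0.71. Without arrays 40 and 44, 5 mitosis genes were lower in place of 21, with a median of -0.44.

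Promoters of the 4 most lowered replication and mitosis genes that have an entry in the RefSeq promoter table are shown because those genes fell together and their lists are the classical targets of E2F and of the cell cycle homology region. Each run gives the 200 bases before the transcription start in GRCm38.p6, read in the direction of the gene, with matches in capitals and nothing else in capitals.
Mcm5: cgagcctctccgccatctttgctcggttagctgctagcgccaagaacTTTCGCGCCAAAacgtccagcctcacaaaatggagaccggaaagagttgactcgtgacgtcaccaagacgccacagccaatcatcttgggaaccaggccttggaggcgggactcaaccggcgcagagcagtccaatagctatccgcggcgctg
Mcm10: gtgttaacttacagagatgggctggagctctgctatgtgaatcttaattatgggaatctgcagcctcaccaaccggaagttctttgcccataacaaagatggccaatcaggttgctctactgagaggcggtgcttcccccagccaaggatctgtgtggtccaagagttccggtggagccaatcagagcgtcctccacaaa
Cdc20: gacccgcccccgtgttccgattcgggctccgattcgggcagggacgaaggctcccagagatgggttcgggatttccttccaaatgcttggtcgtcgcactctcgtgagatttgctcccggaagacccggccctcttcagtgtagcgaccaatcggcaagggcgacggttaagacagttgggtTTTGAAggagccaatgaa
Mcm7: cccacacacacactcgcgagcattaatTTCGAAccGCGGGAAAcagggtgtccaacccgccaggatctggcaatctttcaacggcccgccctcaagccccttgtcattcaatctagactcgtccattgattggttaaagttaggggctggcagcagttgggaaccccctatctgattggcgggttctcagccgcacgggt

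Mcm5 lies on the plus strand at chr8:75109309-75109508, and its capitals hold 2 overlapping E2F letters, TTTCGCGC on the strand shown and TTTGGCGC on the other. Mcm10 lies on the minus strand at chr2:5012792-5012991 and held no match in these bases. Cdc20 lies on the minus strand at chr4:118437344-118437543, with TTTGAA just before the start. Mcm7 lies on the minus strand at chr5:138171884-138172083, with TTCGAA, which reads the same on both strands, and TTTCCCGC on the other strand. Searched on both strands over 250 bases before and 50 after a start, the E2F letters (TTTCCCGC, TTTCGCGC, TTTGCCGC or TTTGGCGC) were found for 2.6% of 27025 genes in the table and 4.93% of the 5034 tested genes with an entry. They were found for 11 of 28 replication genes (39.3%), in 7 of the 19 that fell (36.8%) and 4 of the 9 that did not pass (44.4%). The cell cycle homology letters (TTTGAA or TTCGAA) were found for 16.7% of the tested genes and for 24 of 32 mitosis genes (75.0%), in 12 of 15 that fell and 12 of 17 that did not pass. Within each list the letters were found among members that fell and among members that did not pass; a match is a description and shows no binding.

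The replicative helicase and its loaders were lower. Mcm5, a subunit of that helicase, had signals of 342 to 799 (median 481) at day 4 and 96.5 to 261 (median 167) at day 7. Every day 7 array was below every day 4 array, and the difference was -1.62 ± 0.23 (adjusted p = 7.8e-05). Mcm7, another subunit, fell by 1.36 ± 0.19 with no overlap (adjusted p = 7.63e-05), from a median of 287 to 109. The subunits Mcm2, Mcm3 and Mcm4 fell by 0.68, 0.89 and 0.69. Mcm10, which helps to activate the helicase, fell by 1.57 ± 0.33, with 4 of 6 day 7 arrays at the floor, and its call was lost with a higher floor. Cdc45, Cdc6 and Cdt1, which load or start the helicase, fell by 0.95, 0.95 and 0.89, and the sliding clamp Pcna by 0.76.

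Tk1, the thymidine kinase of dividing cells, had signals of 358 to 837 (median 449) at day 4 and 133 to 257 (median 188) at day 7. No arrays overlapped, with a difference of -1.47 ± 0.20 (adjusted p = 4.54e-05). Rrm2, the regulated subunit of ribonucleotide reductase, fell by 1.23 ± 0.23. In chromatin copied with DNA, 5 of 15 were lower and 0 higher, with a median of -0.52. Uhrf1, which carries DNA methylation to new strands, fell by 1.06 ± 0.16 with no overlap (adjusted p = 7.95e-05), at -1.45 with the Gapdh ratio in the fit (adjusted p = 0.00704) and -1.15 with the actin ratio (adjusted p = 0.136). The chromatin assembly subunit Chaf1b fell by 1.02 ± 0.19 with no overlap, and Banf1, which rebuilds the nuclear envelope after mitosis, by 1.05 ± 0.15 with no overlap.

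Mitosis genes set the day 7 arrays apart from each other. The list mean in log2 signal ran from 6.54 to 7.50 on the day 4 arrays, the lowest being array 51. On the day 7 arrays it was 6.90 (array 35), 6.02 (36), 7.11 (39), 6.03 (40), 7.13 (43) and 5.79 (44). Arrays 36, 40 and 44 lay below every day 4 array, and arrays 35, 39 and 43 lay inside the day 4 range. The replication list kept the same order within each consecutive day 7 pair. Means were 6.15 and 5.87 on arrays 35 and 36, 6.19 and 5.75 on 39 and 40, and 6.38 and 5.75 on 43 and 44. This order was not particular to day 7. At day 4 the replication means were 6.91 and 6.49 on arrays 33 and 34 and 6.84 and 6.69 on 37 and 38. On arrays 41 and 42 they were 7.23 and 6.83. The mitosis means were 7.37 and 7.11 on arrays 33 and 34 and 7.50 and 6.99 on 41 and 42. Arrays 37 and 38 went the other way in mitosis, at 7.18 and 7.30.

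Cdc20, the activator of the anaphase-promoting complex, shows the same split. Its signal was 430 to 1048 (median 726) at day 4. On the day 7 arrays it was 347 (array 35), 161 (36), 362 (39), 156 (40), 484 (43) and 163 (44), and the difference over all arrays was -1.52 ± 0.25 (adjusted p = 0.000301). Mki67, the proliferation marker Ki-67, was 24.2 to 165 at day 4 and 129, 41.5, 146, 41.2, 223 and 33.4 on the same day 7 arrays in that order. It therefore did not pass over all arrays, with a difference of -0.02 ± 0.42 (adjusted p = 0.982), while day 7 array 43 was higher than every day 4 array. The topoisomerase Top2a had a difference of -0.58 ± 0.30 and did not pass.

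The Gapdh ratio was 1.48 and 1.54 on arrays 35 and 36, 1.46 and 1.09 on arrays 39 and 40, and 1.49 and 1.11 on arrays 43 and 44. The array with the lower Cdc20 signal thus had the higher ratio in 1 pair and the lower ratio in the other two. The part of the ratio in this split was not tested. Fat storage means at day 7 were 9.48 and 9.48 on arrays 35 and 36 and 8.88 and 8.89 on arrays 39 and 40. On arrays 43 and 44 they were 9.55 and 9.49. At day 4 the higher number of each pair had the higher fat storage mean. The means were 8.02 and 8.65 on arrays 33 and 34 and 8.12 and 8.39 on arrays 37 and 38. On arrays 41 and 42 they were 8.29 and 8.84. Among the brown day 7 arrays the lower number of each consecutive pair also had the higher Cdc20 signal. It was 477 and 311 on arrays 07 and 08, 579 and 274 on arrays 11 and 12, and 672 on array 22. At day 4 the brown pairs had 1253 and 983 on arrays 05 and 06 and 1506 and 1485 on 09 and 10. White day 4 pairs had 632 and 430 on arrays 33 and 34 and 1048 and 817 on 41 and 42. Arrays 37 and 38 went the other way, at 615 and 758. The labels give the arrays of a pair no difference other than the number, and what the pairs stand for was not tested. No test is given for this pattern, since it was noticed in the values themselves.

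Cell cycle inhibitors and cyclins of G1 moved in both directions, with 4 higher and 3 lower of 20 tested and a median of 0.11. Ccng1, a cyclin induced by p53, rose by 1.10 ± 0.21 and Ccng2, a cyclin of resting cells, by 0.69 ± 0.18, both without overlap. The kinase inhibitor Cdkn2c rose by 0.86 ± 0.18. Cdkn2d, of the same inhibitor family, fell by 0.67 ± 0.17, and Cdk4, the kinase both inhibit, by 0.56 ± 0.14.

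Genes of protein synthesis and folding gave more lower than higher calls. Of 25 tested cytosolic ribosomal proteins, 14 were lower and 0 higher, with a median of -0.31, and 10 were lower without day 4 arrays 45 and 51. Rpl10a had signals of 3241 to 6529 (median 4168) at day 4 and 2459 to 2935 (median 2624) at day 7. The 2 days were fully apart, with a difference of -0.69 ± 0.11 (adjusted p = 0.000234). Rpl13a fell by 0.64 ± 0.13 with no overlap. Ribosomal protein genes have many near-identical copies in the genome, and their probe sets may bind those too. In ribosome assembly 5 of 17 were lower and 1 higher, with a median of -0.18; Nhp2, of the particles that modify ribosomal RNA, fell by 0.84 ± 0.19, while Gnl3, nucleostemin, rose by 0.71 ± 0.19.

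In folding in the endoplasmic reticulum, 8 of 28 were lower and 0 higher, with a median of -0.16. Pdia6, a disulfide isomerase, had signals of 890 to 1379 (median 1175) at day 4 and 307 to 657 (median 452) at day 7. Every day 7 array was below every day 4 array, by 1.33 ± 0.17 (adjusted p = 1.99e-05). Sec61b, of the channel into the reticulum, fell by 0.77 ± 0.13, Manf, a secreted stress protein, by 0.69 ± 0.14, and Xbp1, a transcription factor of the unfolded protein response, by 0.56 ± 0.14 with no overlap. The chaperone Hspa5, the usual readout of that response, had a difference of 0.01 ± 0.16 and did not pass (adjusted p = 0.973). The ER stress element (CCAAT, 9 further bases, CCACG) was found in 0.199% of tested promoters and in 7 of 24 of this list (29.2%), in 2 of 7 that fell and 5 of 17 that did not pass. Ssr1, of the translocon-associated complex, fell by 0.78 ± 0.11 with no overlap (adjusted p = 7.8e-05).

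Of 32 tested subunits of the constitutive proteasome, 7 were lower and 2 higher, with a median of -0.17. Psmc3, an ATPase of the cap, fell by 0.62 ± 0.14, and Psmd1, a scaffold subunit of the cap, rose by 0.91 ± 0.18. Without day 4 arrays 45 and 51 the counts were 1 lower and 1 higher. Of 18 cytosolic chaperones 4 were lower and 1 higher, with a median of -0.07, and Cct3, of the chaperonin that folds actin and tubulin, fell by 0.69 ± 0.14.

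Class I antigen presentation gave mostly higher calls, and interferon-stimulated genes gave lower ones. Of 13 tested genes of the immunoproteasome and peptide loading, 6 were higher and 1 lower, with a median of 0.31. B2m, the light chain of class I, rose from 1495–3522 (median 2473) to 3875–4458 (median 4141). All arrays of one day lay on one side, with a difference of 0.83 ± 0.18 (adjusted p = 0.00192). The heavy chain H2-K1 rose by 0.83 ± 0.12 and the loading protein Tapbp by 0.60 ± 0.12, both without overlap; the probe set of H2-K1 may bind other class I genes. H2-M10.1, a class I gene of a different branch, fell by 1.44 ± 0.26 with no overlap.

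Of 22 interferon-stimulated genes, 0 were higher and 5 lower, with a median of -0.19. Ube2l6, which attaches ISG15 to proteins, fell from 93.7–308 (median 128) to 38.8–71.5 (median 51.4). The difference was -1.42 ± 0.22 with no overlap (adjusted p = 0.00015). Irf7 fell by 0.95 ± 0.20, Isg15 itself by 0.83 ± 0.19, and Ifitm3, an antiviral membrane protein, by 0.76 ± 0.13 with no overlap. Among 17 chemokines and cytokines 1 was higher and 2 lower; Cxcl5, which attracts neutrophils, ran from 670 to 1931 at day 4 and from 106 to 960 at day 7, a difference of -1.44 ± 0.43 (adjusted p = 0.0193) that missed the threshold without day 7 array 36 or 44 (highest adjusted p = 0.0698).

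The Id genes, which BMP induces, were lower at day 7. Id1, an inhibitor of helix-loop-helix transcription factors, had signals of 411 to 630 (median 502) at day 4 and 170 to 251 (median 215) at day 7. No overlap was seen; the difference was -1.26 ± 0.14 (adjusted p = 3.18e-06), and it was -1.26 with the Gapdh ratio in the fit (adjusted p = 0.0192) and -1.09 with the actin ratio (adjusted p = 0.126). Id3 fell by 0.95 ± 0.16 and Smad6, which dampens BMP signalling and is one of its targets, by 0.94 ± 0.15, both without overlap, and Id2 by 1.0 ± 0.26. Over the list of TGF-beta, activin and BMP signalling, 3 of 33 were higher and 6 lower, with a median of 0.02. Inhbb, the activin subunit made by fat cells, rose from 29.6–73.4 (median 59.4) to 115–202 (median 132), by 1.35 ± 0.29 with no overlap.

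In Wnt signalling 5 of 29 were higher and 2 lower, with a median of 0.02. The secreted Wnt antagonists Sfrp1 and Frzb rose by 0.87 ± 0.23 and 1.54 ± 0.39, the latter with 2 day 4 arrays at the floor. Ccn4, a matricellular target of Wnt signalling, rose by 1.26 ± 0.25. Among 13 imprinted genes 1 was higher and 2 lower. Grb10, which dampens insulin receptor signalling, fell from 99.0–217 (median 144) to 41.7–118 (median 54.5), by 1.27 ± 0.23 (adjusted p = 0.000604), and array 40 was the one day 7 array inside the day 4 range. Ndn, necdin, a growth suppressor of precursors, fell by 1.08 ± 0.19.

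Matrix genes gave mostly higher calls. Of 33 tested matrix genes other than collagens, 13 were higher and 2 lower, with a median of 0.47, and without day 4 arrays 45 and 51 the counts were 9 and 3. Thbs2, an anti-angiogenic thrombospondin, rose from 83.3–291 (median 141) to 344–997 (median 551). There was no overlap, with a difference of 1.85 ± 0.28 (adjusted p = 9.57e-05). The collagen-binding proteoglycans Lum and Dcn rose by 1.56 ± 0.29 and 1.05 ± 0.22, both without overlap. Vcan, the large proteoglycan of provisional matrix, went the other way, from 32.9–208 (median 76.5) to 11.6–87.9 (median 20.3), by -1.61 ± 0.40 (adjusted p = 0.00628); without arrays 40 and 44 it did not pass (adjusted p = 0.0661).

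Of 23 collagens 4 were higher and 0 lower, with a median of 0.32. Col4a1, a chain of the basement membrane collagen that surrounds fat cells, rose from 724–1799 (median 1535) to 2075–2586 (median 2318). The days separated completely, with a difference of 0.79 ± 0.19 (adjusted p = 0.00424), and its partner chain Col4a2 rose by 0.79 ± 0.21. The fibrillar chain Col3a1 rose by 0.48 ± 0.12, but with the actin ratio as a covariate its difference was -0.07. Mmp3, stromelysin, was the 1 metalloproteinase or inhibitor of 13 that passed, with 1.75 ± 0.41. Among 24 lysosomal genes 4 were higher and 1 lower, with a median of 0.25; the proteases Ctsb and Ctsd rose by 0.50 ± 0.10 and 0.61 ± 0.15, Ctsb without overlap.

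Cytoskeleton genes were lower in part. Of 31 tested actin and tubulin genes, 10 were lower and 2 higher, with a median of -0.10, and without day 4 arrays 45 and 51 the counts were 5 and 2. Tubb5, a beta-tubulin, had signals of 2468 to 4081 (median 3517) at day 4 and 1705 to 2410 (median 2167) at day 7. Arrays of the 2 days did not mix, with a difference of -0.64 ± 0.13 (adjusted p = 0.00159). Gsn, gelsolin, which severs actin filaments, rose by 0.81 ± 0.18. Of 16 S100 proteins and annexins 4 were lower and 1 higher, with a median of -0.15. S100a4, also known as fibroblast-specific protein, fell from 1681–6249 (median 2261) to 609–1480 (median 1056), by 1.38 ± 0.22 with no overlap (adjusted p = 0.000204). Anxa8 rose by 2.06 ± 0.43 with no overlap and 1 day 4 array at the floor.

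Several of the steepest differences belong to none of the functional lists. Amy1, an amylase, lay at the floor on 5 of 8 day 4 arrays and reached 19.2 at most, against 50.7 to 131 (median 101) at day 7. Day 4 and day 7 arrays did not overlap, and the difference of 3.03 ± 0.30 (adjusted p = 9.23e-07) depends on the floor. Amylase genes are close copies of each other, and the signal may come from more than 1 of them. Acp5, the tartrate-resistant acid phosphatase, rose from 49.8–133 (median 92.3) to 196–410 (median 330), by 1.94 ± 0.27 with no overlap (adjusted p = 6.01e-05). Wfdc18, a secreted small protein, rose by 2.37 ± 0.51 with no overlap and 2 day 4 arrays at the floor.

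Among the steepest falls outside the lists, St6galnac6, a sialyltransferase, was at the floor on all 6 day 7 arrays against 11.1 to 93.3 (median 47.7) at day 4. It was at least 4.69-fold lower at day 7 (adjusted p = 0.00168), and the call was lost with a higher floor. Kcnd1, a voltage-gated potassium channel, fell by 1.45 ± 0.35 with no overlap and 1 day 7 array at the floor. Procr, the endothelial protein C receptor, fell from 75.5–197 (median 116) to 33.5–60.9 (median 49.5), by 1.30 ± 0.19 with no overlap (adjusted p = 7.95e-05). Of 99 solute carriers 4 were higher and 5 lower, fewer than the shares over all genes in either direction, and the amino acid transporter Slc38a4 fell by 1.19 ± 0.17 with no overlap (adjusted p = 6.37e-05).

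Clock genes and immediate early genes gave no calls. With limma, 0 of 13 clock genes and 0 of 18 immediate early genes passed, and their medians were 0.17 and 0.15. In the same fit 3 and 4 had an unadjusted p under 0.05. The share of all genes under that unadjusted level was not counted, so the 3 and 4 cannot be set against all genes.

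Markers of other cells were measured on the same arrays. Of 14 tested macrophage markers 3 were higher and 0 lower, with a median of 0.51. Their estimates were above 0 for 13 markers and below 0 for 1, Csf1r. The summed signal of the list was 790 to 2353 at day 4 and 1133 to 1799 at day 7. C1qa and Ctss rose by 1.27 ± 0.43 and 1.24 ± 0.38. Both missed the threshold without at least 1 array (highest adjusted p = 0.088 and 0.0679). Lyz2, lysozyme, had signals of 13.2 to 139 (median 34.3) at day 4 and 92.4 to 334 (median 183) at day 7. The highest day 4 array lay inside the day 7 range, and the difference was 2.24 ± 0.41 (adjusted p = 0.000581). Csf1r, the receptor macrophages need to survive, had a difference of -0.22 ± 0.20 and did not pass, and Itgam and Aif1 were at the floor on all white arrays. Day 4 array 51 had the highest macrophage value of all white arrays, a list mean of 6.72 against 4.86 to 5.75 on the other day 4 arrays and 5.43 to 6.45 at day 7. Its mesothelial value was also the highest, at 6.90 against 5.42 to 6.18 on the other day 4 arrays, and Upk3b, a uroplakin of mesothelium, was 272 there against 53.9 to 90.6. The fall of Upk3b over all arrays, by 0.99 ± 0.32 (adjusted p = 0.0297), missed the threshold without array 51 (adjusted p = 0.0566), and without day 7 array 35 or 36. The part of these cells in the changes of complement, lysosome and antigen presentation genes was not tested.

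Smooth muscle and pericyte markers gave 3 higher and 0 lower of 13, with a median of 0.29. Myh11, the myosin of contractile smooth muscle, had signals of 12.7 to 113 (median 45.2) at day 4 and 160 to 534 (median 382) at day 7. All day 7 arrays were the higher ones, by 3.01 ± 0.36 (adjusted p = 9.3e-06). Mcam, an adhesion protein of pericytes, rose by 0.97 ± 0.16 with no overlap, while the brightest marker, Acta2, the actin of smooth muscle and myofibroblasts, had a difference of 0.29 ± 0.18 and did not pass. The summed signal of the list was 6548 to 10360 at day 4 and 8297 to 11890 at day 7. Endothelial markers gave 1 higher and 1 lower of 10, Flt1 with 1.38 ± 0.35 and Ramp2 with -0.63, and a summed signal of 1483 to 2272 at day 4 and 1550 to 1996 at day 7. Striated muscle markers gave 3 higher and 0 lower of 17. The 3 were Acta1, Myl1 and Tnnc2, with signals of at most 147, while Actc1 ran from 295 to 653 at day 4 and from 451 to 734 at day 7, with Myh2, Myh3, Tnni2 and Myf5 at the floor on all white arrays.

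Most genes called in white cells had an estimate of the same sign in brown cells. Of the 1223 genes called in white cells, 1147 did, whether or not the brown difference passed. The share of all tested genes with the same sign in both was not counted. In brown cells 1012 of 8397 probe sets were called. Of the 1595 probe sets called in white cells, 601 were called in brown cells too, and 597 of these went the same way. The 2 cell types share no array. The difference between the changes passed for 18 of 8397 probe sets (0.214%), 4 with the greater value in white and 14 in brown cells. Counting each gene by its brightest tested probe set, it passed for 12 genes. The brown arrays have lower numbers than the white arrays and did not show the shift in the Gapdh ratio, so handling and cell type cannot be told apart here.

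**Figure D5:**
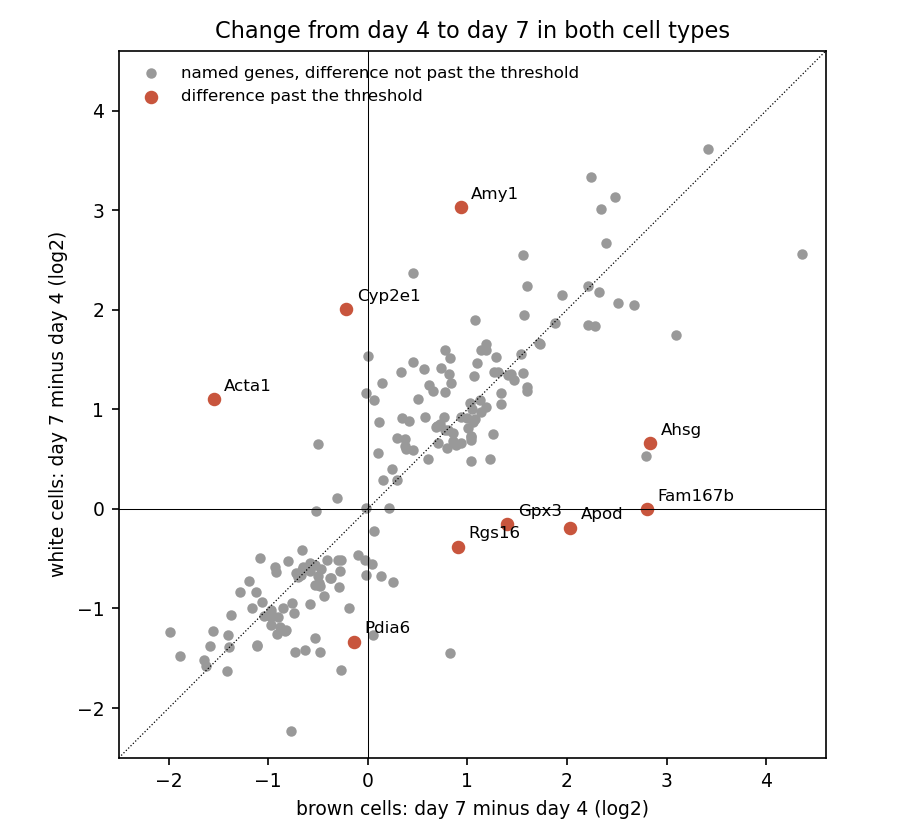
Day 7 minus day 4 log2 difference in brown cells (horizontal axis) and white cells (vertical axis) for the genes named in the text, with the line of equal change dotted. Genes named in red passed the test of the difference, among them Cyp2e1 (2.0 in white, -0.22 in brown) and Acta1 (1.10 and -1.55) above the line and Ahsg (0.66 and 2.83) below it.

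Cyp2e1 rose in white cells and not in brown cells. Its brown signals were 60.1 to 93.2 (median 79.7) at day 4 and 33.5 to 92.7 (median 72.5) at day 7, against the white rise given above. The change was larger in white cells by 2.22 ± 0.34 (adjusted p = 0.00127). Acta1, the actin of skeletal muscle, rose in white cells from 16.5–86.0 (median 57.7) to 73.0–147 (median 104). In brown cells it was 398 to 738 (median 634) at day 4 and 115.0 to 283 (median 205) at day 7, so the cell types moved in opposite directions, with a difference of changes of 2.64 ± 0.42 (adjusted p = 0.00213). The rise of Amy1 exceeded that in brown cells by 2.10 ± 0.46 (adjusted p = 0.0477), a size that depends on the floor.

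Pdia6, which fell by 1.33 in white cells, had a difference of -0.14 in brown cells, and the gap between these changes passed, at -1.20 (adjusted p = 0.0477). Ahsg, the plasma protein fetuin-A, rose by 0.66 ± 0.18 in white cells, from a median of 50.9 to 77.7, and by 2.83 ± 0.22 in brown cells, where all day 4 arrays were at the floor. The change was smaller in white cells by 2.18 ± 0.28 (adjusted p = 0.000273). Gpx3, a secreted glutathione peroxidase, was bright in white cells at both days, at 2780 to 5771 and 2823 to 4367, and rose in brown cells from a median of 1926 to one of 4895, with a difference of changes of -1.56 ± 0.28 (adjusted p = 0.00941). Fam167b stayed at or near the floor on every white array and rose in brown cells to 30.7 to 79.5. Apod, apolipoprotein D, and Rgs16, a regulator of G protein signalling, also had smaller changes in white cells, by 2.22 ± 0.48 and 1.28 ± 0.28 on the log2 scale (adjusted p = 0.0477 for both).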

How the data were processed

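The deposited values are probe set intensity values on a linear scale, made with MAS5 by the authors per the submitters' processing notes; its version is not given, and no detection calls were used. Total RNA was extracted with Trizol, per the labels' protocols. Because MAS5 takes mismatch signal away, dim values carry much noise. The deposited arrays already shared a scale, with 2% trimmed means of 150.094 to 150.117. After rescaling to 150, signals below a floor at the 20th percentile over all arrays (8.21) were raised to it before taking log2; 1.56% of tested values lay at the floor. Of 12422 non-control probe sets, 8397 lay above the 40th percentile of their array on at least 5 arrays and were tested; the 66 controls were left out. Median signal on the white arrays was 41.9 to 59.0, and the number of arrays limits the precision. Correlations between arrays of a group were 0.890 to 0.956 at day 4 and 0.933 to 0.960 at day 7.

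The 4 group means were fitted with limma 3.58.1 (lmFit and eBayes with a trend on intensity; R 4.3.3), with 20 residual degrees of freedom, two-sided tests and Benjamini-Hochberg adjustment over all tested probe sets. Adjusted p-values are from this fit. Control ratios used exact permutation tests over arrays (scipy 1.17.1). The fit was also run on simulated data with independent noise and known changes. Those data held no shift in the 3' to 5' ratio and no pairs of arrays, so they cannot speak to either. Symbols came from the platform annotation, which gives 1 symbol for 10855 of 12488 probe sets, several for 396 and none for 1237; 10839 matched the reference gene table. A gene stands for its brightest tested probe set. Of 1108 genes with more than 1 tested probe set, 375 had a call, in 57 of them every probe set was called the same way, and 6 had calls in both directions. Named genes are those with the 10 largest rises and falls without overlap, the 10 largest moderated t in each direction, up to 4 called members per list and direction, and up to 5 differences from brown cells in each direction; other list members complete a description. Members, lists and promoters were chosen with earlier results of these data known, and lists share members. Alternatives were other scalings, floors, filters, fits and left-out arrays. Comparisons with arrays 40 and 44 alone, or without them, were added after seeing the data. Annotation and promoters are those of RefSeq, GRCm38.p6, which may differ from the build behind the array's annotation.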

Additional observations from a re-analysis of the deposited data

Results flagged for a closer look

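Of 380 sets of values (1 gene or ratio in 1 group) searched for a stray array, 22 were marked because the gap of the highest or lowest array to its neighbour took more of the group's range than Dixon's critical value (0.526 for 8 arrays, 0.625 for 6); chance marks about 1 in 20 groups, which is close to the number seen. Day 4 array 51 was marked 6 times. It was lowest for Slc2a4 (gap over range 0.553), Scd1 (0.682), Sdha (0.648) and Mcm10 (0.596), and highest for Cd68, a macrophage marker (0.665, a signal of 233.5 against 37.2 to 68.8), and Upk3b (0.678). Other day 4 arrays were lowest for Hk1 (array 42, 0.683) and Aurkb (array 34, 0.672), and array 37 was alone above the floor for Fam167b (1.0, a signal of 8.29). On day 7 array 43, Elovl6 (0.73) and Rpsa (0.674) were highest and C1qa (0.701) and Orm2 (0.641) lowest. On day 7 array 36, Pck1 (0.769) and Slc38a4 (0.843) were lowest. On day 7 array 35, Gnl3 was lowest (0.855) and Apod highest (0.628). Mvk on array 44 (0.635), Hsp90b1 on array 39 (0.687) and Grb10 on array 40 (0.663) were highest at day 7. The Tfrc ratio was highest on day 4 array 42 (0.558) and day 7 array 44 (0.896).

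Changes from day 4 to day 7 that differed between white and brown cells by limma were larger in white cells for Cyp2e1 (2.22), Amy1 (2.10) and Acta1 (2.65), and smaller, as white minus brown, for Pdia6 (-1.20), Fam167b (-2.81), Apod (-2.22), Ahsg (-2.18), Gpx3 (-1.56) and Rgs16 (-1.28).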

How the results depend on the processing

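The count of 1595 changed probe sets was between 1346 and 1704 under other settings of the fit. These were the values as deposited, quantile normalization, other floors or filters, white arrays alone, array weights and no intensity trend. With the number runs as a block, a fit on white arrays that leaves out day 4 arrays 45 and 51, the count was 1297. It fell to 1046 without day 4 arrays 45 and 51, to 330 against day 7 arrays 40 and 44 alone, to 1070 without them, to 37 with the Gapdh ratio and to 6 with the actin ratio as a covariate. Leaving out each array in turn gave 1134 (without day 7 array 36) to 1910 (without day 4 array 34). The 18 probe sets that differed between white and brown cells became 35 with a floor at the 40th percentile, 45 with array weights, 10 with no floor, 10 with no filter, 9 with the stricter filter, 11 with no trend, 5 with the Gapdh ratio, 8 with the actin ratio, and 7 (without brown day 4 array 05, brown day 7 array 12 or white day 4 array 42) to 23 with 1 array left out. Of the 1223 called genes, 19 turned their sign with the Gapdh ratio and 91 with the actin ratio. Among the named genes signs turned for Nsdhl (0.21 with the Gapdh and 0.14 with the actin ratio), Mvd (0.000194 and 0.11), Mvk (0.0066, actin) and Col3a1 (-0.070, actin). Of 168 named genes past the threshold, 24 missed it without at least 1 array, among them Mvd without any of 17 arrays. The Gapdh and actin ratio differences kept their direction with every array left out (0.382 to 0.473 and 0.737 to 0.903). The cause of these shifts was not tested. No paired analysis was possible because array numbers do not repeat across the groups. The number runs served as a block instead, for the white arrays of the 3 runs that hold both days. Signals near the floor limit the sizes given for dim genes.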
